A study of Danio rerio with 8 samples.

Results

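The genes described here are cdh17, pax2a, pax8, lhx1a, irx1a, pou3f3b and aqp3a, a group of 7 zebrafish genes named for their use in the pronephros, the first kidney of the fish embryo. They were chosen by symbol alone, as every probe set of the array that the platform annotation pairs with exactly 1 of these symbols. They are 7 of the 8793 genes with such a probe set, and they hold 10 of the 15502 probe sets that are not Affymetrix controls, with 3 for lhx1a, 2 for pax2a and 1 for each other gene. RNA came from embryos of the AB strain background that carried a cd41-GFP transgene and were 35 hours past fertilization. GFP in this line follows the regulatory DNA of cd41, named itga2b in current annotation, which codes for an integrin of thrombocytes and early blood progenitors. Live cells were sorted into GFP-positive cells and GFP-negative cells, the latter being the rest of the dissociated embryo, and 4 Affymetrix arrays were hybridised for each fraction, numbered as pairs 1 to 4. Both fractions carry the transgene and come from the same kind of embryo, so they differ by the gate. Whether the pairs were independent clutches is not stated in the labels, and the p-values therefore cover only the variation among these arrays, part of which may be technical.

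The pronephros is a pair of tubules that drain a shared glomerulus and run back along the trunk to the cloaca. Pax and Lhx factors act early in specifying its epithelium, Iroquois and POU factors mark and pattern its segments, and cadherin-17 joins the cells of the finished tubule. The same transcription factors are also made in the embryonic brain, spinal cord and ear. The tissue around the pronephros later becomes the kidney marrow, the site of adult blood formation in fish, and cd41-GFP blood cells have been seen along the pronephric tubules in living embryos.

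The arrays shared 1 scaling by the authors, with median signals between 275 and 421. A signal was treated as dim when it did not exceed the 40th percentile of its own array, which lay between 168 and 283. In all, 3078 of 9801 tested probe sets differed between the fractions (limma with the pair as a block, Benjamini-Hochberg adjusted p under 0.05), which is 31.4% of them, with 13% higher and 18.4% lower in GFP-positive cells. The gene behind the gate, itga2b, was dim on all 8 arrays and checks nothing. The array of GFP-positive pair 3 stood nearer to the other fraction than the rest did. Its mean correlation to the GFP-negative arrays was 0.79, against 0.53 to 0.64 for the other GFP-positive arrays, with pair 1 the lowest. The array of GFP-positive pair 1 was also the least like its own fraction (mean correlation 0.73, against 0.83 to 0.87). For these reasons the text names the member calls that are lost without a pair. The GAPDH control ratio of 3' over 5' signal, which rises when transcripts are shortened, was higher in GFP-positive cells in 4 of 4 pairs (86.6 against 75.4, 31.3 against 22.6, 99.95 against 18.2 and 45.6 against 21.6). The GAPDH ratio of 3' over middle signal was higher there in pairs 1, 3 and 4 but lower in pair 2 (3.35 against 3.76). The part of these ratios in the results was not tested.

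The members did not behave alike. One or more probe sets of pax2a, lhx1a, irx1a and pou3f3b fell in GFP-positive cells, aqp3a rose, and cdh17 and pax8 were not tested, pax8 being dim on all 8 arrays and cdh17 on 6 of 8. Without regard to the filter, the fractions did not overlap for 7 of the 10 probe sets, 6 lower and 1 higher in GFP-positive cells, and they overlapped for the other 3. Over all probe sets that are not controls, 13.8% were lower without overlap and 13% were higher without overlap, and among tested probe sets these shares were 19.9% and 14.5%. With no filter 20.7% of all probe sets differed by the limma test. Of the 6 member probe sets that entered the test, 5 exceeded the percentile on all 4 GFP-negative arrays and on at most 2 GFP-positive ones. For both tested lhx1a probe sets the latter number was 0. The GFP-negative arrays alone thus admitted these 5 probe sets, so the count of falls among tested members and their p-values depend in part on that. The filter leaves the log2 differences themselves unchanged. In these mixed samples fewer cells of a type and less RNA per cell cannot be told apart.

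**Figure D1:**
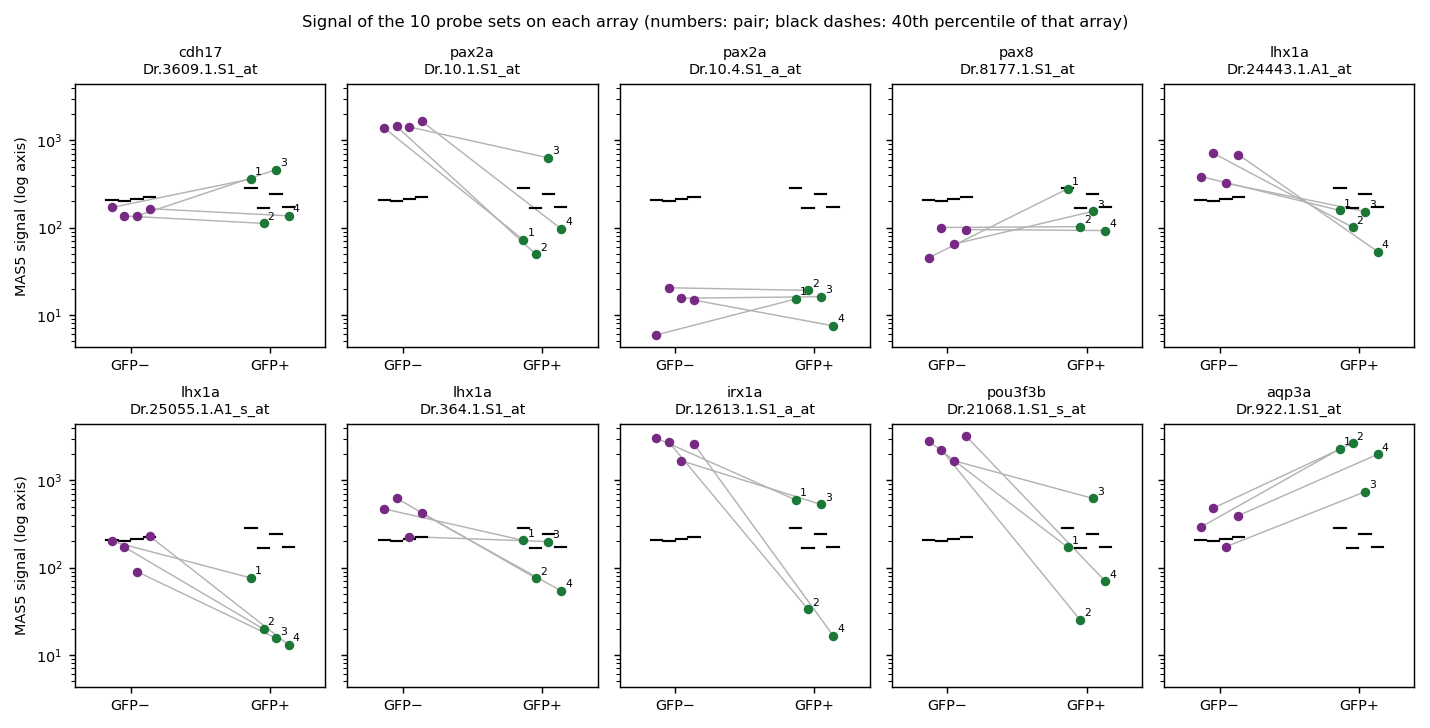
Deposited MAS5 signal (log axis) of each of the 10 probe sets in GFP-negative (GFP−, purple) and GFP-positive (GFP+, green) cells, with lines joining the arrays of a pair, pair numbers beside the green points and the 40th percentile of each array as a black dash. The first pax2a probe set lies between 1387 and 1653 in GFP-negative cells and between 49.5 and 630 in GFP-positive cells, while cdh17 and pax8 stay near or under the dashes.

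The cadherin gene cdh17 encodes the adhesion protein of the tubule and duct epithelium and is the member most specific to the pronephros. Its signals in GFP-negative cells were 170, 136, 136 and 165 in pairs 1 to 4, all dim. In GFP-positive cells they were 361, 112, 462 and 136, above the 40th percentile in pairs 1 and 3 and dim in pairs 2 and 4. The GFP-positive arrays of pairs 1 and 3 were thus the high ones, and the other 2 fell among or just below the GFP-negative values, so the fractions overlapped. Relative to the 40th percentile of the array, which was itself higher on those arrays (283 and 245, against 168 and 170 for pairs 2 and 4), the cdh17 signal was 1.27, 0.66, 1.88 and 0.80 times that value. The mean log2 signal was 7.81 ± 1.01 (SD, n = 4) in GFP-positive and 7.24 ± 0.18 (SD, n = 4) in GFP-negative cells. The log2 differences of the pairs were 1.08, -0.28, 1.77 and -0.27, so cdh17 was higher in 2 of 4 pairs. In a fit of all probe sets with no filter its difference had a 95% interval from -0.55 to 1.70, with a limma adjusted p of 0.44, and the range was 0.18 to 0.86 with 1 pair left out. No fold is given, because both fractions were dim on at least 2 arrays.

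Next in role come the paired-box factors. The gene pax2a is needed for tubule and duct differentiation and is also a marker of the midbrain-hindbrain boundary, optic stalk, ear and spinal interneurons. By the first of its 2 probe sets its signals in GFP-negative cells were 1387, 1441, 1423 and 1653 in pairs 1 to 4. In GFP-positive cells they were 72.5, 49.5, 630 and 97.5. All 4 GFP-positive values lay below all GFP-negative ones, and pair 3 was the single GFP-positive array above its 40th percentile. Means of the log2 signal were 6.93 ± 1.63 (SD, n = 4) in GFP-positive and 10.52 ± 0.11 (SD, n = 4) in GFP-negative cells, which makes the GFP-negative values the least variable of any member. The log2 difference was -3.59 (SE 0.61, 95% interval -5.04 to -2.15, n = 4 pairs), lower in 4 of 4 pairs, with a limma adjusted p of 0.0075. Because the signal was dim in GFP-positive cells, only a bound is measured, and pax2a was at least 5.51-fold lower. A bound of this kind is taken from means alone and carries no error, so the interval can hold smaller folds. In pair 3 the difference was -1.18, against -4.86 to -4.08 in the other pairs, and it was -4.40 without pair 3.

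The other pax2a probe set, with the ending _a_at that Affymetrix gives to probe sets for alternative transcripts of a gene, showed nothing of this. Its signals were 5.90 to 20.5 in GFP-negative and 7.51 to 19.1 in GFP-positive cells, dim on all 8 arrays and under the 10th percentile of each. Its mean log2 difference was 0.09, and it was lower in 2 of 4 pairs. The difference between the 2 pax2a probe sets was -3.68 ± 1.94 (SD, n = 4 pairs), with the first lower in 4 of 4 pairs. An exact two-sided sign-flip permutation test gave p = 0.13 (0.17 adjusted over 4 such tests), the smallest p that 4 pairs allow. A probe set at that level measures little in either fraction, so the fall of pax2a rests on 1 probe set.

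The close relative pax8, which acts with pax2a in the pronephros and ear and is needed in the thyroid of mammals, had 1 probe set. In GFP-negative cells its signals were 45.1, 100.3, 64.6 and 95, and in GFP-positive cells 279, 103, 153 and 92.5. All 8 values were dim. By signal the GFP-positive arrays of pairs 1 and 3 were again the high ones. The other 2 matched their GFP-negative partners closely, with pair differences of 0.03 and -0.04 on the log2 scale against 2.63 and 1.25 in pairs 1 and 3. Relative to the 40th percentile of the array, the GFP-positive signals were 0.98, 0.61, 0.63 and 0.54 times that value, so by this measure only pair 1 stood out. The mean difference was 0.97, higher in 3 of 4 pairs, and with no filter its 95% interval was -0.35 to 2.29 with a limma adjusted p of 0.27. The pax8 level therefore has no measured order between the fractions.

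The LIM homeodomain factor gene lhx1a, one of the earliest genes of the kidney field and also expressed in neurons, was covered by 3 probe sets. By the first of these the signals in GFP-negative cells were 384, 711, 322 and 684 in pairs 1 to 4. The GFP-positive signals were 157, 101, 153 and 53.2, all dim and all below the GFP-negative ones. The log2 difference was -2.22 (SE 0.53, 95% interval -3.47 to -0.96, n = 4 pairs, lower in 4 of 4), with a limma adjusted p of 0.021, and the gene was at least 2.35-fold lower by this probe set. The call was lost without pair 2 (adjusted p = 0.088) or pair 4 (adjusted p = 0.077).

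By the second probe set lhx1a had signals of 470, 622, 226 and 418 in GFP-negative cells and of 205, 75.5, 198 and 54.4 in GFP-positive cells. The fractions did not overlap, but the lowest GFP-negative value, in pair 3, was close to the highest GFP-positive ones. The log2 difference was -1.84 (SE 0.57, n = 4 pairs, lower in 4 of 4) with a limma adjusted p of 0.048, at least 1.93-fold lower, and the pair differences ran from -3.04 to -0.19. This call was marginal, since it was lost with no filter (adjusted p = 0.0503), with dim signals raised to the 40th percentile (log2 difference -0.95, adjusted p = 0.064) and without pair 1, 2 or 4 (adjusted p = 0.066 to 0.18). The third lhx1a probe set has the ending _s_at, for probes shared between transcripts, and was dim on 7 of 8 arrays. It gave 89.8 to 230 in GFP-negative and 12.98 to 75.9 in GFP-positive cells, without overlap. Its mean difference was -2.80, and it entered the test only with no filter, where its limma adjusted p was 0.013 (0.056 without pair 2 and 0.064 without pair 4). The 3 probe sets of lhx1a thus pointed the same way in each of the 4 pairs. Exact two-sided sign-flip tests of the 3 comparisons between them gave p = 0.13, 0.13 and 0.375. They cannot decide whether the probe sets differ in size, since 0.13 is the smallest p that 4 pairs allow.

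The Iroquois homeodomain gene irx1a, which marks a distal segment of the pronephros and regions of the brain and ear, had 1 probe set, with the ending _a_at. In GFP-negative cells its signals were 3040, 2724, 1670 and 2599, between the 75.0 and 82.7 percentiles of their arrays. In GFP-positive cells they were 596, 33.2, 531 and 16.6. Pairs 1 and 3 kept a measured signal there, above the 40th percentile, and pairs 2 and 4 were dim, yet no GFP-positive value reached the GFP-negative range. The log2 mean was 6.85 ± 2.68 (SD, n = 4) in GFP-positive cells, the widest spread of any member, and 11.26 ± 0.38 (SD, n = 4) in GFP-negative cells. The log2 difference was -4.41 (SE 0.97, 95% interval -6.70 to -2.12, n = 4 pairs, lower in 4 of 4), with a limma adjusted p of 0.016, and irx1a was at least 7.94-fold lower. Pair differences were -2.35, -6.36, -1.65 and -7.29, and the call was lost without pair 2 (adjusted p = 0.051) or pair 4 (adjusted p = 0.054).

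The POU factor gene pou3f3b, which marks distal pronephric segments and much of the central nervous system, had 1 probe set, with the ending _s_at. That ending marks probes that can match more than 1 transcript, so a relative could contribute to its signal. Values in GFP-negative cells were 2815, 2247, 1675 and 3189, and in GFP-positive cells 170, 25.0, 620 and 69.6. The fractions were far apart in pairs 1, 2 and 4, and nearest in pair 3, the single GFP-positive array above its 40th percentile. The log2 difference was -4.37 (SE 0.77, 95% interval -6.20 to -2.55, n = 4 pairs, lower in 4 of 4), with a limma adjusted p of 0.0082, and pou3f3b was at least 9.06-fold lower. The call held with any 1 pair left out (adjusted p = 0.0029 to 0.041). Over all tested probe sets, 0.908% had a lower fitted difference than pou3f3b and 0.857% than irx1a, against 2.28% for pax2a and 7.96% and 10.5% for the 2 tested lhx1a probe sets, although the dim values give these fitted differences no firm order.

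The aquaglyceroporin gene aqp3a, which encodes a channel for water and glycerol, was the member that rose. In mammals its protein lies in the collecting duct of the kidney, in skin and, in mice, in macrophages. Its signals in GFP-negative cells were 291, 481, 173 and 394, and in GFP-positive cells 2290, 2651, 739 and 1980. Every GFP-positive value lay above every GFP-negative one, and pair 3 was the lowest of both fractions. The log2 mean was 10.75 ± 0.83 (SD, n = 4) in GFP-positive and 8.29 ± 0.64 (SD, n = 4) in GFP-negative cells. The difference was 2.46 on the log2 scale (SE 0.28, 95% interval 1.80 to 3.13, n = 4 pairs, higher in 4 of 4), a 5.52-fold rise with a limma adjusted p of 0.0025. The pair differences of 2.09 to 2.98 varied less than those of any other member (SD 0.37, n = 4 pairs), and the call held under all 13 alternatives, with values from 2.29 to 2.70. Of the tested probe sets, 4.02% had a higher difference.

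**Figure D2:**
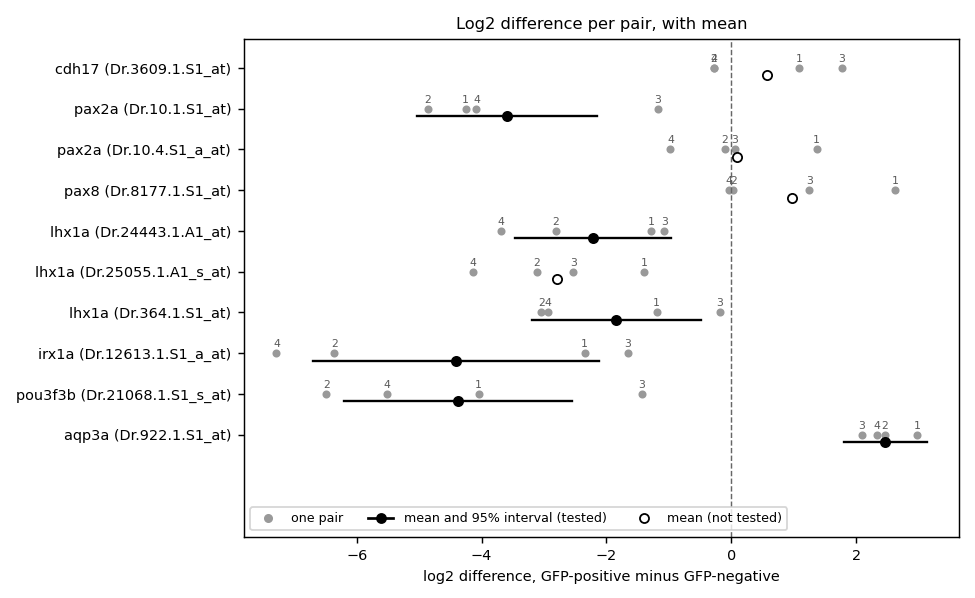
Log2 difference in signal, GFP-positive minus GFP-negative, for each of the 10 probe sets. Grey points are the 4 pairs with their numbers, black points with bars are fitted means with 95% intervals for tested probe sets, and open points are means of probe sets that were not tested, the third lhx1a probe set (ending _s_at) among them. The aqp3a pairs lie between 2.09 and 2.98 and the irx1a pairs between -7.29 and -1.65.

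**Figure D3:**
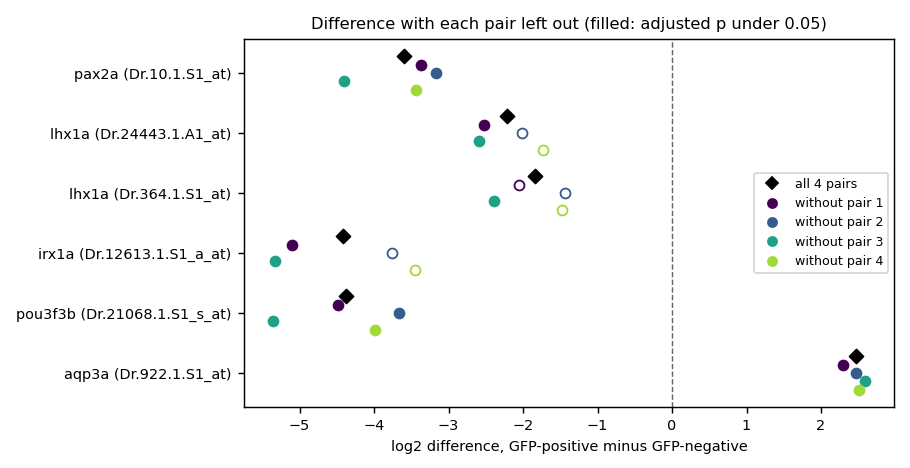
Log2 difference, GFP-positive minus GFP-negative, for the 6 tested probe sets with all 4 pairs (diamonds) and with each pair left out (circles), filled where the limma adjusted p was under 0.05. The pax2a, pou3f3b and aqp3a calls stay filled throughout, and irx1a and both lhx1a probe sets have open circles without pair 2 or pair 4, the second lhx1a probe set also without pair 1.

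The spread among GFP-positive arrays was shared by several members. Over the 8 arrays, once each fraction's mean was removed, cdh17 deviated most like irx1a (Pearson r = 0.94) and pou3f3b (r = 0.94), and least like aqp3a (r = -0.52). These correlations describe 8 arrays that share libraries and scaling between genes. Markers of some other tissues, but not of all, moved with them. The summed signal of 25 genes of the midbrain-hindbrain boundary, ear and spinal neurons was 15098, 2747, 35302 and 4694 on the GFP-positive arrays of pairs 1 to 4, and 71989 to 94472 on the GFP-negative arrays. The arrays of pairs 1 and 3 were the high ones here as well. A sum of 16 other pronephric transcription factor genes ran the same way (10184, 2935, 12640 and 3838). The muscle sum (2044, 1840, 7673 and 2526) was high in pair 3 only. A sum of 16 genes of tubule transport and structure was lowest in pair 1 (15022, 20887, 26421 and 21007). The gene atp1b1a alone made up 11.6% to 67.0% of that sum in GFP-positive cells. By the median log2 signal of the same 16 genes (8.94, 8.14, 8.86 and 7.90), pairs 1 and 3 were the high ones. Medians of the skin genes (8.48, 8.30, 8.81 and 8.06) and podocyte genes (9.79, 8.63, 10.26 and 8.63) were also highest in pairs 1 and 3. The part of these tissues in the member signals was not tested.

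The genes with the array pattern most like each tested member, by Pearson r of log2 signal among all tested probe sets, are given as a description. For the first pax2a probe set they were hoxa2b (r = 0.997 over 8 arrays), the hindbrain Hox gene, then rab3c (r = 0.995) and gjc4b (r = 0.994). For irx1a they were sv2bb, emx2 and apln (r = 0.998, 0.998 and 0.996), and for pou3f3b its relative pou3f2b, hoxd4a and zic1 (r = 0.997, 0.997 and 0.995). The first lhx1a probe set was nearest to cyp26b1, camkvl and ing4 (r = 0.985, 0.985 and 0.984), and the second to gad1b, pim3 and calb2b (r = 0.982, 0.980 and 0.979). For aqp3a the order was mtpn, ces2b and gabarapa (r = 0.981, 0.980 and 0.978). With deviations from the fraction means, hoxa2b stayed first for pax2a (r = 0.994) and sv2bb for irx1a (r = 0.995). The nearest to pou3f3b was then pax6b (r = 0.995) and to aqp3a the gene mhc1zba (r = 0.976), while the lhx1a probe sets were nearest to camkvl (r = 0.934) and zc4h2 (r = 0.991).

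Relatives of the members in the same gene families were set beside them. In the Iroquois family 4 of 4 other tested genes fell, with a median log2 difference of -3.25 (-2.73 with dim genes at their bounds). The duplicate irx1b was at least 8.66-fold lower (adjusted p = 0.012), irx3a fell by 3.38 on the log2 scale (adjusted p = 0.0083), irx5a was at least 5.12-fold lower (adjusted p = 0.0083) and irx7 at least 1.83-fold lower (adjusted p = 0.035, lost with no replicate block and without pair 1, 2 or 4). All 3 other POU3 genes tested fell too. Of these pou3f1 fell by 4.38 (adjusted p = 0.0097) and pou3f2b by 4.59 (adjusted p = 0.0076), and pou3f3a was at least 8.11-fold lower (adjusted p = 0.038, lost without pair 1, 2 or 4). Of the LIM homeodomain genes, lhx5, a gene of forebrain and spinal neurons, was the only other one tested and was at least 9.64-fold lower (adjusted p = 0.0037). The duplicate lhx1b was not tested, since its signals were 35.9 to 136 in GFP-positive and 185 to 390 in GFP-negative cells.

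Of 5 other Pax genes tested 2 fell, and 0 did without pair 4. Among them pax6a fell by 3.28 on the log2 scale (adjusted p = 0.012, lost without pair 4) and pax6b was at least 2.15-fold lower (adjusted p = 0.024, lost without pair 1, 2 or 4), both eye and brain factors. The duplicate pax2b had a difference of 0.37 (adjusted p = 0.50), higher in 2 of 4 pairs, and its other probe set, not tested, had -2.37. Neither pax7a (0.74, adjusted p = 0.21) nor pax9 (-0.26, adjusted p = 0.62) passed. Of 4 other cadherin genes tested 2 fell. The neural cadherin gene cdh2 fell by 3.59 (adjusted p = 0.0043) and cdh11, of mesenchyme, was at least 14.8-fold lower (adjusted p = 0.0040), while cdh1 of epithelia (0.58, adjusted p = 0.18) and cdh4 (-0.42, adjusted p = 0.46) did not pass. Of 3 other aquaporin genes tested 2 fell and 0 rose. The vessel and red cell aquaporin gene aqp1a.1 fell by 1.58 (adjusted p = 0.014, lost with no replicate block and without pair 2, 3 or 4), aqp8a.1 was at least 7.90-fold lower (adjusted p = 0.011), and aqp12 had -0.61 (adjusted p = 0.22). The glycerol channel gene aqp9b was dim on all 8 arrays and not tested, with signals of 46.0 to 123 in GFP-positive and 14.4 to 27.7 in GFP-negative cells, higher in 4 of 4 pairs.

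**Figure D4:**
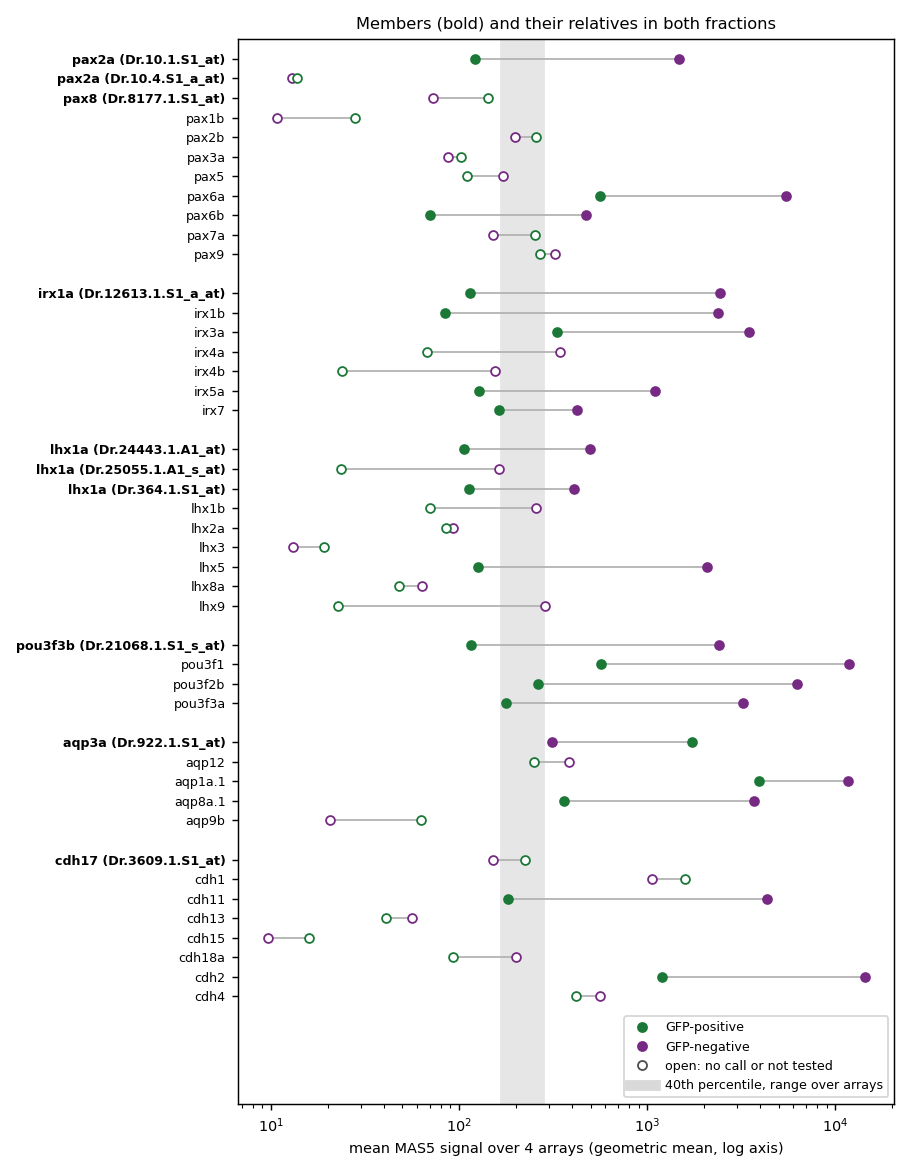
Geometric mean MAS5 signal over 4 arrays (log axis) in GFP-negative (purple) and GFP-positive (green) cells for the members (bold) and the relatives on the array, with 1 probe set per relative. Filled points have a limma adjusted p under 0.05, open points had no call or no test, and the grey band is the range of the array 40th percentiles, 168 to 283. Points should be compared within a line only, since probe sets differ in brightness, and aqp3a is the only filled line among those shown whose GFP-positive point is the right-hand one.

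Further pronephric genes were counted from lists that do not include the members. Of 11 tested pronephric transcription factor genes 9 fell and 0 rose, with a median log2 difference of -2.57 (-2.32 with dim genes at their bounds), beside a median of -0.18 over all tested probe sets (0.0077 after median centring). The count of 9 was 5 without pair 2 and 4 without pair 4, and 1 gene of the list was called higher under 7 of the 13 alternatives, the 3 other scalings among them. The T-box gene tbx2b was at least 5.002-fold lower (adjusted p = 0.0047), and the list also holds irx1b, irx3a, irx5a and pou3f3a. The 2 that were not called were pax2b and the oestrogen-related receptor gene esrrga (1.14, adjusted p = 0.052). Among the fallen genes, the fractions overlapped for gata3 (adjusted p = 0.045). Another rfx2 probe set, not tested, had a difference of 1.83, while the other pou3f3a probe sets, also not tested, were lower. The duct and tubule factor genes hnf1bb, hnf4a and sim1a were dim on all 8 arrays and not tested.

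Genes of tubule transport and structure gave a different count. Of 10 tested 3 fell and 0 rose, with a median of -0.93. Without pair 2 or pair 4 only 1 fell, and the count of rises depended on the scaling, with 2 under quantile or cyclic loess scaling and 1 under median centring. The Notch ligand gene jag2b fell by 2.74 on the log2 scale (adjusted p = 0.0072), and ret, the receptor gene of the duct and of enteric neurons, was at least 2.19-fold lower (adjusted p = 0.023, lost without pair 2 or 4, and 0.30 by another, dim probe set). The phosphate transporter gene slc20a1a fell by 1.38 (adjusted p = 0.031, lost with no replicate block, with quantile or cyclic loess scaling, and without pair 2, 3 or 4). The sodium pump gene atp1a1a.4, defining for the tubule, was above the 40th percentile on 1 GFP-positive and 2 GFP-negative arrays and was not tested. Neither slc12a3 nor clcnk was tested. The slc12a3 signal was above the percentile on 2 GFP-positive arrays and on 0 GFP-negative ones, and clcnk was dim on every array of both fractions. The summed signal of the 16 genes on the array was 15022 to 26421 in GFP-positive and 18675 to 31426 in GFP-negative cells, so the fractions overlapped.

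Podocyte genes, of the glomerular filter, were tested for 4 of 6 on the array. The genes foxc1a, podxl and ptpro fell by 2.64, 2.08 and 2.91 on the log2 scale (adjusted p = 0.0044, 0.0077 and 0.012, the call of ptpro lost without pair 4), and the adaptor gene cd2ap rose by 1.86 (adjusted p = 0.0069). The list median was -2.36. The defining podocyte factor gene wt1a was dim on all 8 arrays, and one of the other ptpro probe sets, dim and not tested, had a difference of 0.63.

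Cell types that could also carry aqp3a were looked at by their markers. Of 4 tested ionocyte genes, the proton pump gene atp6v1ba rose by 1.73 on the log2 scale (adjusted p = 0.0092, lost without pair 4) and 0 fell, with a median of 0.76. Carbonic anhydrase ca2 (0.19, adjusted p = 0.64), atp1b1b (0.29, adjusted p = 0.73) and atp6v1h (1.23, adjusted p = 0.064) did not pass. The count of rises was 2 under quantile or cyclic loess scaling, under array weights and without pair 1, and 0 without pair 4. The larger differences were those of the proton pump genes atp6v1ba and atp6v1h, and whether these came from ionocytes was not tested. The list genes foxi1, rhcgb, atp1a1a.3 and atp1a1a.5 were dim on all 8 arrays. The ionocyte factor genes foxi3a and foxi3b were not among the genes read here. The summed signal of the 8 ionocyte genes on the array was 26319 to 47226 in GFP-positive and 10611 to 15934 in GFP-negative cells, and 4 of the 8 were dim on all GFP-positive arrays. That sum was mostly atp6v1ba, which made up 70.9% to 85.8% of it in GFP-positive and 61.7% to 74.8% in GFP-negative cells. The other 7 genes summed to 4784 to 7857 and 2732 to 6109, so without atp6v1ba the fractions overlapped. Of 11 tested skin genes 3 fell and 0 rose (0 fell without pair 2 or pair 4, and 1 under quantile scaling or median centring), and the median was -0.96 (-0.71 when dim genes took their bound). Keratin genes krt5 and krt17 were the less firm of these, since both lost their calls under quantile scaling, median centring and without pair 2 or 4, krt5 also under cyclic loess, and krt17 also with raised dim signals and without pair 1 or 3, and anxa1c fell by 2.14 (adjusted p = 0.023, lost without pair 2 or 4).

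Myeloid genes were higher in the same fraction as aqp3a. All 14 tested rose, with a median log2 difference of 4.33, and their summed signal was 272144 to 476784 in GFP-positive and 22138 to 55488 in GFP-negative cells. Of these the leukocyte phosphatase gene ptprc rose by 4.69 on the log2 scale (adjusted p = 0.00053). The myeloid genes mmp9 and alox5ap were dim on all 4 GFP-negative arrays, so their GFP-positive arrays alone admitted them to the test. Among 8 tested blood progenitor and thrombocyte genes 1 rose and 4 fell, with a median of -0.71. Without pair 2 or pair 4 the count of falls was 0. The progenitor factor genes tal1 and gata2a fell by 1.34 and 1.49 on the log2 scale (adjusted p = 0.018 and 0.020), lmo2 fell by 1.04 (adjusted p = 0.044), and thbs1b was at least 2.25-fold lower (adjusted p = 0.018). The thbs1b signal was dim on all 4 GFP-positive arrays, so its GFP-negative arrays alone admitted it to the test. The coagulation factor gene f13a1b was the one that rose, by 2.30 on the log2 scale (adjusted p = 0.0021). The 3 not called were myb (0.68, adjusted p = 0.15, higher in 4 of 4 pairs), ikzf1 (0.64, adjusted p = 0.43) and nfe2 (-0.38, adjusted p = 0.32). The defining progenitor factor gene runx1 was dim on all arrays and not tested, so the progenitor factors did not all run 1 way. The part of any of these cells in the aqp3a signal was not tested.

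Genes of neural tissue, where the fallen members are also made, and genes of muscle were lower as well. Of 21 tested genes of the midbrain-hindbrain boundary, ear and spinal neurons 17 fell and 0 rose, and the median was -3.52 (-2.42 when dim genes took their bound). Other tested probe sets of elavl3 (-0.26, limma adjusted p = 0.62) and sox2 (0.55, adjusted p = 0.40), both counted as fallen, were not called. Another tested probe set of sox3 was lower (-4.86, adjusted p = 0.0072). The boundary gene en2b was at least 8.93-fold lower (adjusted p = 0.0058) and the neural gene sox19a at least 27.5-fold lower (adjusted p = 0.0054). All 9 tested muscle genes fell, and the median was -4.98 (-4.67 when dim genes took their bound), ckma by 4.43 on the log2 scale (adjusted p = 0.0014). The log2 differences of pax2a, irx1a and pou3f3b lie within the wide range of the tested neural genes (-5.35 to 0.00045). They also lie within that of the tested pronephric transcription factor genes (-4.82 to 1.14). The shares of pronephric and neural cells in these differences cannot be told apart with these samples.

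**Figure D5:**
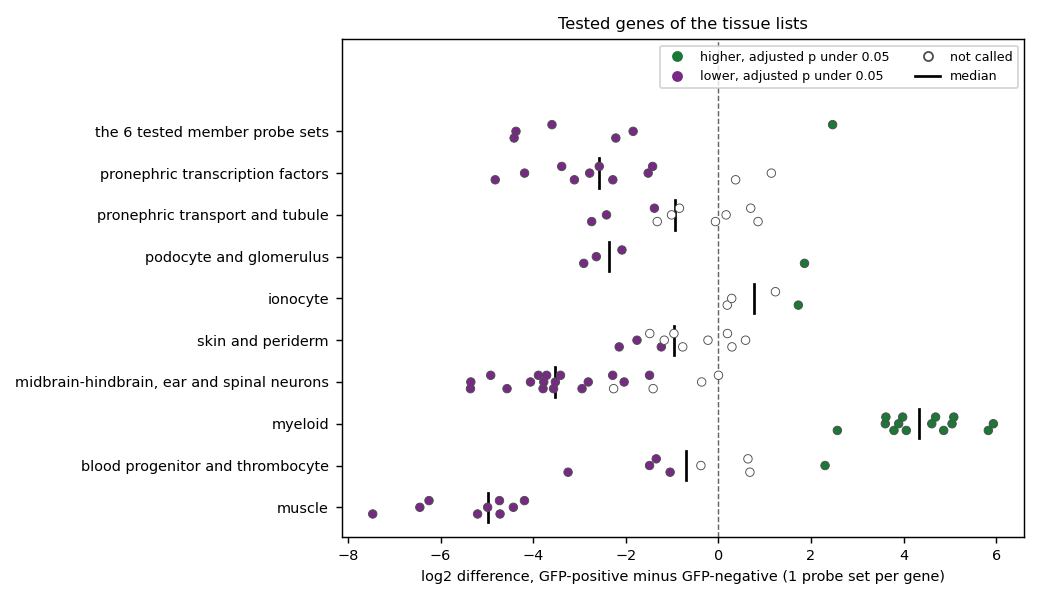
Log2 difference, GFP-positive minus GFP-negative, for the 6 tested member probe sets and for the tested genes of 9 lists, with 1 probe set per gene. Green and purple points passed the limma test at an adjusted p under 0.05, higher or lower, open points did not, and vertical bars are medians of the 9 lists, from -4.98 for muscle to 4.33 for myeloid genes.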

How the data were processed

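The authors deposited linear intensity values, 1 for each probe set on each of 8 arrays. Per the submitters' processing notes these deposited intensity values are MAS5 signals, of a version not stated. Per the labels' protocols, sorted cells were passed through the sorter again and RNA underwent linear amplification before hybridization, which can shorten transcripts. The mean signal without the lowest and highest 2% of probe sets was 1500.3 to 1500.5 on all arrays, and no arrays were identical. Depth does not apply to arrays, and their number limits the precision.

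Signals were transformed to log2 with no pseudocount. Of 15617 probe sets, 115 controls stayed out, and 9801 were tested because they exceeded the 40th percentile of their array on at least 4 of 8 arrays. Differences were fitted with limma 3.58.1 in R 4.3.3 (lmFit, eBayes with trend, two-sided, Benjamini-Hochberg over all tested probe sets, threshold 0.05), with the pair as a block because the design text pairs the fractions. Deviations from the fraction means correlated within pairs by 0.40, 0.26, 0.18 and -0.12, so the data do not show the pairing for pair 4. The fit was also run on simulated data with normal noise, and no result here rests on that run. A probe set above the 40th percentile on at most 2 of 4 arrays of its lower fraction has a bound only, with dim signals raised to the percentile.

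Platform symbols named probe sets, updated through gene identifiers, and 10802 had exactly 1. A list gene was represented by its tested probe set with the highest mean. Named are all member probe sets, relatives, up to 4 genes per list with the smallest p, and the 3 genes most like each tested member by Pearson r. Genes of lists named for being dim or for defining a cell type, and the members of counts, were chosen after their values were seen. The members and lists were chosen with earlier results of these data known. Sequences were not used here.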

Additional observations from a re-analysis of the deposited data

How the results depend on the processing

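The aqp3a, pax2a (first probe set) and pou3f3b calls held under all 13 alternatives, which changed the scaling, filter, floor, variance trend, block, array weights or the pairs used. No member with a called difference changed direction. With no replicate block the calls of the 6 tested member probe sets were kept, pax2a at an adjusted p of 0.00457 and aqp3a at 0.00468. The second lhx1a probe set lost its call with no filter (log2 difference -1.84) and with dim signals raised to the 40th percentile (-0.95). With 1 pair left out, differences ran from -2.39 to -1.44 for that probe set, from -2.596 to -1.73 for the first lhx1a probe set and from -5.33 to -3.45 for irx1a. Of the 6 tested member probe sets 5 were called lower, beside 1805 of all 9801 tested probe sets (18.4%). The count of 5 became 3 under a filter at the 60th percentile, which left both lhx1a probe sets untested. Over all probe sets that filter gave 1354 lower. With 1 pair left out, 2 to 5 member probe sets were called lower. The counts over all probe sets did not always move with them. Without pair 1 the member count was 4, while 2027 of all tested probe sets were called lower. Without pair 3 these counts were 5 and 1455. Over all probe sets, array weights called 1968 higher and 3031 lower. Leaving out 1 pair gave 646 to 1466 higher and 659 to 2027 lower, fewest without pair 4, and 34 to 58 of the list genes lower against 57. Median centring gave 1496 higher and 1440 lower over all probe sets. The values for ca2 and atp1b1b, not called, changed sign, with -0.12 for ca2 under array weights, and for atp1b1b -0.13 with raised dim signals, -0.17 under array weights and -0.39 to 0.75 with 1 pair left out. The causes of these changes were not tested. MAS5 signals near or under the 40th percentile are noisy, which limits cdh17, pax8 and the GFP-positive values of the fallen members.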

Other observations

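The muscle actin control signal was 294, 202, 1136 and 383 on the GFP-positive arrays of pairs 1 to 4, so pair 3 was high for muscle as for pax2a and pou3f3b, while pair 1 was not. The GAPDH ratio of 3' over 5' signal was highest on the GFP-positive arrays of pairs 1 and 3 (86.6 and 99.95), the arrays on which cdh17 exceeded its 40th percentile. The GFP-negative array of pair 1 came next with a ratio of 75.4, and cdh17 was dim there, at 0.82 times the percentile. These values were not tested against each other.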
